A study of Mus musculus with 16 samples.

Results

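The 6 genes described here encode the EGR transcription factors (Egr1, Egr2, Egr3 and Egr4) and their NAB corepressors (Nab1 and Nab2). They were chosen by symbol from the 52636 Ensembl gene IDs of the count table, and all 6 were found. RNA had been sequenced after depletion of ribosomal RNA from 16 libraries of the mouse line CRAFR26, in the pluripotent state that the labels abbreviate to RSC. The line carries a c-RAF kinase construct that 4-hydroxytamoxifen switches on, and RAF acts through MEK on the kinase ERK. In every group the MEK inhibitor PD0325901 of the routine medium (N2B27 with LIF and IWP2) had been exchanged 48 h earlier for the FGF receptor inhibitor PD173074 at 250 nM. Cells of the group 0h had no tamoxifen, those of 2h and 4h had 250 nM 4-hydroxytamoxifen for 2 h and 4 h, and those of rev had it for 4 h and then a MEK inhibitor for 2 h, at a dose the labels do not give. Each group had 4 libraries, 2 from clone 4 and 2 from clone 8. Each clone is a single line, the libraries of a clone are not stated to be separate cultures, and p-values therefore measure the spread between these libraries. No group had 6 h of induction without the inhibitor, so that at rev the inhibitor and the further culture time cannot be told apart.

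EGR proteins are zinc finger transcription factors that bind GC-rich DNA and are classic immediate-early genes: they can be switched on by growth factor signals without new protein synthesis. ERK phosphorylates ternary complex factors of the ETS family, which act with serum response factor (SRF) at CArG boxes in the promoters of such genes. NAB1 and NAB2 bind a short domain of EGR1, EGR2 and EGR3 that EGR4 lacks, recruit the NuRD chromatin complex, and limit EGR activity. Nab2 is itself described as an EGR target in other cells, so that the pair is known as a negative feedback loop.

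Promoter windows in the RefSeq table (build GRCm38.p6, 250 bases before to 50 after a transcript start) were matched by symbol for 4 of the 6 genes. Motifs of 4 kinds were searched on both strands: the CArG box of SRF, the EGR consensus GCGNGGGCG, the ETS-type sequence CCGGAAG and the cyclic AMP response element TGACGTCA. No match overlapped another. The 250 bases before the start are shown for Egr2, Nab1 and Nab2, the members with a window that moved in these data, with the motif matches in capitals and each sequence 5′ to 3′ on the gene's strand. The Egr2 stretch is chr10:67537619-67537868 (plus strand), that of Nab1 chr1:52500449-52500698 (minus strand) and that of Nab2 chr10:127666704-127666953 (minus strand).
Egr2: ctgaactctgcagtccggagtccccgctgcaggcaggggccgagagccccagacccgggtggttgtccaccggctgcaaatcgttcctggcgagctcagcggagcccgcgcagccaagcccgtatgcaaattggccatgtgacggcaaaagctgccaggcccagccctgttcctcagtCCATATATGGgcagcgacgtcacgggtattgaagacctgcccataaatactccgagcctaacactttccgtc
Nab1: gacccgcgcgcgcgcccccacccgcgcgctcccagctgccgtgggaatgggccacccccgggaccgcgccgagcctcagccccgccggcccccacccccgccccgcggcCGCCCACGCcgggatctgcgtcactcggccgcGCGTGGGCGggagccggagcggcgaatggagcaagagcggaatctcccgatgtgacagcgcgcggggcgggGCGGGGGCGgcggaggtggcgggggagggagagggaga
Nab2: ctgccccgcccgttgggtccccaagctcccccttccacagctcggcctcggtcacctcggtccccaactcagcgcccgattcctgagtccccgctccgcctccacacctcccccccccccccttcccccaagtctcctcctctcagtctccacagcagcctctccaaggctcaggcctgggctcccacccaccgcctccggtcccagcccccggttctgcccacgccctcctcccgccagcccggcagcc
In Egr2 the capitals mark 1 CArG box, at -72 to -63 from the start. Egr2 has 5 windows; 3 of them overlap and hold this same box, 1 holds another and the first listed holds none. Over all 32851 windows of 300 bases in the table, 1.63% held a CArG box. In Nab1 they mark 3 matches to the EGR consensus, which begin at -141, -109 and -38, and 5.55% of windows over the table held at least 1. The ETS-type sequence was in 8.86% of windows over the table and the cyclic AMP response element in 1.79%, and neither was in a window of these genes. The Nab2 window and the 1 Egr4 window held none of the 4 motifs. These matches describe letters in a window and not binding.

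The 16 libraries held about 4313600 to 10444100 counts each. Levels are given as CPM, counts scaled to a common library size over all kept features with TMM factors, and on this scale 3 counts, taken as the floor, came to 0.21 CPM in the deepest library and 0.908 CPM in the shallowest by effective size. The 8 features that each held over 1% of the counts took 46.7% to 78.9% of a library. The rev library 1 of clone 8 had the fewest counts outside these features. Libraries of the same clone and group differed beyond counting noise, with a chi-square per degree of freedom of 1.32 to 4.49. Of 6 core pluripotency markers none was at or under 3 counts in all libraries of a group, and their summed level was 955 to 1479 CPM. Against 0h, 1 of the 6 was called higher at 2h, 1 higher and 1 lower at 4h, and 1 higher at rev. Nanog ranged from 344 to 541 CPM at 0h and from 111 to 468 CPM at 4h. The mean of Lin28a was 23.5 CPM at 0h and 61.5 CPM at 4h. The list of formative or rosette markers mixed Otx2, Podxl, Fgf5 and Dnmt3b with the naive-state factors Klf4, Tfcp2l1 and Esrrb. Of its 6 tested genes 1 was lower at 2h, 2 at 4h and 1 at rev than at 0h, and none was higher. From 0h to 4h mean CPM went from 84.8 to 57.0 (Klf4), 318 to 243 (Tfcp2l1) and 266 to 272 (Esrrb). It went from 12.6 to 11.6 for Otx2, 22.4 to 28.6 for Podxl and 27.5 to 35.1 for Dnmt3b. These calls therefore do not describe formative or rosette markers as a set. Summed levels were 0.919 to 4.54 CPM for 6 fibroblast markers, 3.32 to 9.99 CPM for 7 primitive endoderm markers and 0.599 to 3.56 CPM for 4 mesoderm markers. The 7 trophoblast markers summed to 36.7 to 114.7 CPM, and Cdx2 and Elf5 had at most 7 and 4 counts. Of 5 tested trophoblast markers 3 were higher at 2h and 3 at rev than at 0h, led by the keratin gene Krt8 (2.23 and 2.70 on the log2 scale), with Eomes and Krt18 the others. At 4h 1 was higher and 1 lower than at 0h. The mean of Tfap2c, the most abundant, was 52.1 CPM at 0h and 33.9 CPM at 4h. Of all tested genes 9.49% were called higher at 2h, 7.35% at 4h and 5.51% at rev than at 0h. The shares called lower were 7.48%, 5.56% and 4.94%. Of 3 tested primitive endoderm markers 1 was higher at 2h than at 0h (Dab2, 1.27) and 2 at rev (Dab2 and Pdgfra, the latter by 1.36), while Gata6 and Sox17 had at most 10 and 9 counts. None was called lower against 0h, and the mean of Gata4 was 3.34 CPM at 0h, 2.00 CPM at 4h and 2.59 CPM at rev. The 4 neural markers summed to 32.2 to 76.4 CPM, and of 3 tested Pax6 was higher at 2h (1.31) and 4h (2.37) than at 0h, Sox1 lower at 2h (-0.88) and Tubb3 lower at 4h (-0.60). The part of these markers in the results was not tested. In a principal component analysis the first axis (51.0% of the variance) split clone 4 from clone 8. On the third axis (8.57%) the 0h and 4h libraries had one sign and the 2h and rev libraries the other. Samples of equal sign are compared in 4h against 0h and in rev against 2h, and no batch is given in the labels. In bulk RNA, fewer expressing cells and less RNA per cell cannot be told apart.

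Egr1 (ENSMUSG00000038418, GRCm38 chromosome 18, 34859823 to 34864984, plus strand), the best-known immediate-early member, was the most abundant EGR transcript. At 0h it had 0.999 and 3.94 CPM in clone 4 and 1.45 and 2.01 CPM in clone 8. After 2 h of tamoxifen the values were 457.3 and 572.1 CPM in clone 4 and 179.5 and 169.1 CPM in clone 8. All 2h libraries lay far above all 0h libraries, and clone 4 lay above clone 8. At 4h Egr1 was at 227.7 and 289.8 CPM in clone 4 and at 29.8 and 31.4 CPM in clone 8, below 2h within each clone. At rev the values were 6.55 and 5.04 CPM in clone 4 and 3.63 and 2.69 CPM in clone 8, below every 2h and 4h library and overlapping with 0h. On the TMM scale both rev libraries of each clone nevertheless lay above both of its 0h libraries.

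The log2 change of Egr1 at 2h against 0h was 7.30 (SE 0.379, edgeR adjusted p 3.45e-10), a 157.6-fold rise. At 4h against 0h it was 5.65 (SE 0.387, edgeR adjusted p 2.83e-08). Between 2h and 4h Egr1 fell by 1.65 (SE 0.249, edgeR adjusted p 0.000561). Without the clone covariate that change was -1.26 and not called. From 4h to rev it fell by 4.82 (SE 0.356, edgeR adjusted p 7.49e-08). The difference of 0.84 between rev and 0h (SE 0.540, 95% interval -0.29 to 1.96) was not called, with an edgeR adjusted p of 0.35. It was called in clone 4 alone, at 1.11 (edgeR adjusted p 0.0353), though not there on library totals (1.01, edgeR adjusted p 0.0608). In clone 8 alone it was not called, at 0.81 (edgeR adjusted p 0.144) and on library totals 0.39 (edgeR adjusted p 0.656). Over both clones with no filter on low counts it was called, at 0.86 (edgeR adjusted p 0.00357). The fit without a filter took in 31994 genes, and its p-values are not comparable with those of the main fit.

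**Figure D1:**
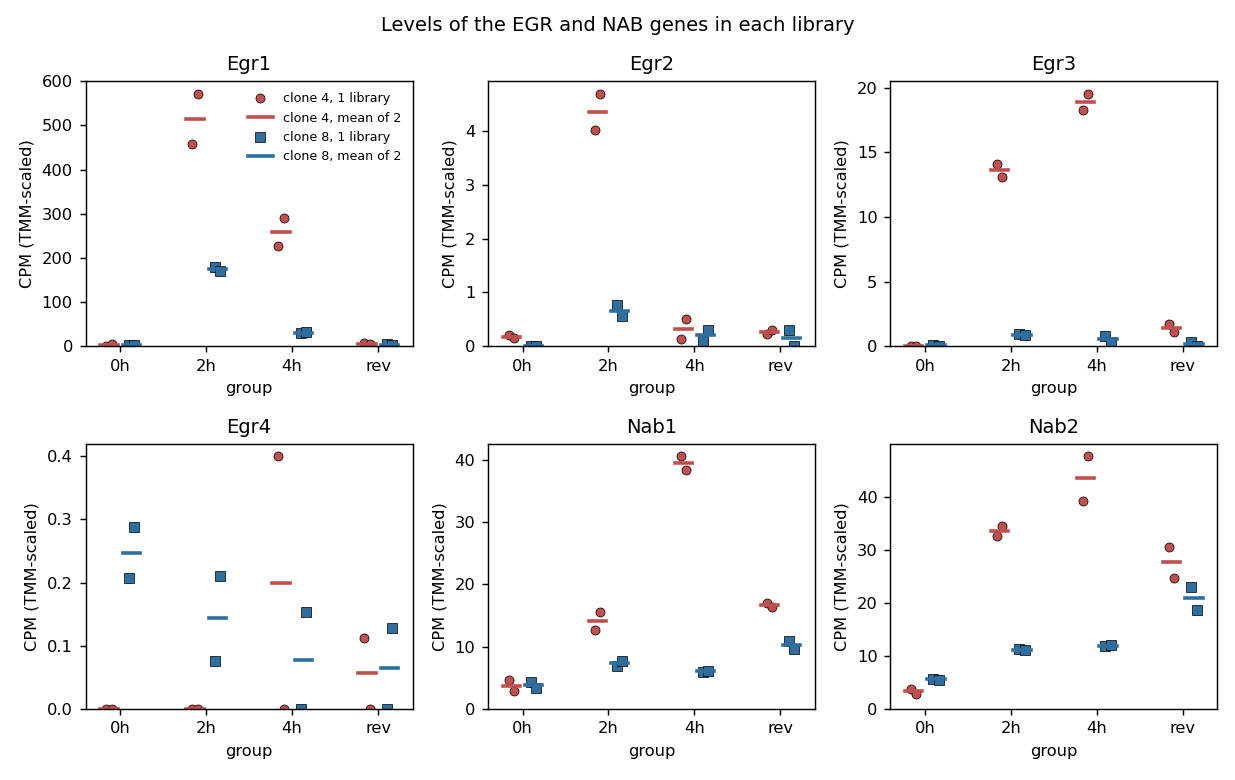
TMM-scaled CPM of each member (vertical axes, each starting at 0 with its own scale) in the 4 groups, with 1 point per library (circles clone 4, squares clone 8) and a line at the mean of the 2 libraries of a clone. Egr1 and Egr2 are highest at 2h in both clones, Egr3 and the NAB genes are highest at 4h in clone 4, and the Egr4 axis ends near the level of 3 counts.

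Egr3 (ENSMUSG00000033730, chromosome 14, 70077203 to 70082614, plus strand), an EGR1 paralog that other EGR proteins can induce in other cells, was at or near 0 counts before induction and was mainly seen in clone 4. The 0h libraries held 0, 0, 1 and 0 counts. At 2h clone 4 had 14.1 and 13.1 CPM (109 and 95 counts) and clone 8 had 0.912 and 0.841 CPM (12 counts each). Both clones were above 0h, but the clone 8 values rest on few counts. At 4h clone 4 had 18.3 and 19.6 CPM and clone 8 had 0.804 and 0.306 CPM (8 and 2 counts). In clone 4 both 4h libraries exceeded both 2h libraries, whereas in clone 8 both were lower. At rev clone 4 had 1.69 and 1.07 CPM (15 and 11 counts), and clone 8 had 1 and 0 counts.

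Because the 0h group held 1 count of Egr3 in all, its rise is given as a ratio of summed scaled counts with an exact 95% interval, which covers counting error only. The ratio of 2h to 0h was 151.7 (27.0 to 6019), and that of 4h to 0h was 226.3 (40.2 to 8977). Clone 4 had no count at 0h. Against a floor of 3 counts over both 0h libraries together its 2h level was 52.8 and its 4h level 72.4 times higher, and the exact lower 95% limits were 42.5 and 58.3. In clone 8 the ratios were 14.5 (2.37 to 597.2) and 10.1 (1.43 to 437.1). Both comparisons were called with edgeR (adjusted p 5.02e-07 and 2.12e-07). From 2h to 4h the log2 change over both clones was 0.28 (SE 0.262, edgeR adjusted p 0.508). From 4h to rev Egr3 fell by 3.64 (SE 0.354, edgeR adjusted p 2.57e-06). At rev it was still above 0h over both clones, by a count ratio of 25.1 (4.14 to 1029, edgeR adjusted p 0.0159). This rests on clone 4, with 26 counts at rev and 0 at 0h. In clone 8 there was 1 count at rev and 1 at 0h, a ratio of 1.49 (0.019 to 117.2). The call over both clones was lost without 0h library 1 or 2 of clone 4 or rev library 1 of clone 4 (edgeR adjusted p 0.0885, 0.114 and 0.066). Without the clone covariate the calls at rev against 4h, 0h and 2h were lost too (edgeR adjusted p 0.16, 0.451 and 0.449).

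Egr2 (ENSMUSG00000037868, chromosome 10, 67535475 to 67542188, plus strand), known as Krox20 for its role in hindbrain and Schwann cells, appeared briefly at 2h. Its counts were 1 and 1 in clone 4 and 0 and 0 in clone 8 at 0h. At 2h they were 31 and 34 in clone 4 (4.02 and 4.70 CPM) and 10 and 8 in clone 8 (0.760 and 0.561 CPM). At 4h they were back to 1 and 2 in each clone, and at rev to 2 and 3 in clone 4 and 1 and 0 in clone 8. The 2h libraries overlapped with no library of another group. The ratio of 2h to 0h was 27.6 (exact 95% interval 7.41 to 231.8), and 2h exceeded 4h by a ratio of 9.11 (4.01 to 25.5). Egr2 did not pass the filter of the fit to all 16 libraries. In the fit with no filter on counts, over 31994 genes, its log2 change was 4.63 at 2h against 0h (SE 0.611, edgeR adjusted p 1e-11). At 4h against 2h it was -3.17 there (SE 0.506, edgeR adjusted p 6.1e-08). Both p-values are not comparable with those of the main fit, which took in 12742 genes. It passed the filter in clone 4 alone only through its 2h libraries, so its call there is not used.

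Egr4 (ENSMUSG00000071341, chromosome 6, 85511121 to 85513589, minus strand), described mainly in neurons and germ cells, had at most 3 counts in any library. It had 0 counts in both clone 4 libraries at 0h and at 2h. The highest value was 0.4 CPM, and at this depth changes of Egr4 were not detectable. Egr4 was not tested outside a fit without a filter on counts, in which it was not called.

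Nab1 (ENSMUSG00000002881, chromosome 1, 52457294 to 52500679, minus strand), the corepressor gene with 3 EGR consensus matches in its window, was present before induction. At 0h it had 4.59 and 2.88 CPM in clone 4 and 4.25 and 3.31 CPM in clone 8. At 2h it was at 12.6 and 15.6 CPM in clone 4 and at 6.91 and 7.71 CPM in clone 8, above 0h in every library. At 4h the clones diverged, with 40.7 and 38.3 CPM in clone 4 and 5.93 and 6.13 CPM in clone 8. At rev Nab1 had 17.1 and 16.4 CPM in clone 4 and 10.9 and 9.59 CPM in clone 8. All rev libraries lay above all 0h libraries.

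The log2 change of Nab1 was 1.40 at 2h (SE 0.371, edgeR adjusted p 0.0143) and 2.24 at 4h against 0h (SE 0.365, edgeR adjusted p 0.000469). In clone 8 alone the change at 4h against 0h was 0.64 and not called (edgeR adjusted p 0.101). The 2h call was lost without 0h library 1 or 2 of clone 4 (edgeR adjusted p 0.0592 and 0.0686) and without the clone covariate (0.135). Between 2h and 4h the change was 0.84 (SE 0.304) and not called, with an edgeR adjusted p of 0.0757. Leaving out either 4h library of clone 8 gave 1.13 and 1.06, both called. The 0.80 found with no filter on low counts was called too (edgeR adjusted p 1.79e-05), with a p-value not comparable with the main fit. From 4h to rev the change over both clones was -0.54 (SE 0.310, edgeR adjusted p 0.294), which passed only with no filter (-0.53, edgeR adjusted p 0.0202) among fits to both clones, and at rev Nab1 stood 1.70 above 0h (SE 0.378, edgeR adjusted p 0.00757). Without both rev libraries of clone 8 the last value was 1.41 (edgeR adjusted p 0.0522), and without the clone covariate 1.86 (edgeR adjusted p 0.0961).

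Nab2 (ENSMUSG00000025402, chromosome 10, 127660918 to 127668568, minus strand) was the more abundant corepressor per exon length in every library, with 53.5% to 78.4% of the summed NAB level. It had 3.80 and 2.88 CPM in clone 4 and 5.60 and 5.46 CPM in clone 8 at 0h. At 2h it had 32.7 and 34.4 CPM in clone 4 and 11.3 and 11.01 CPM in clone 8. At 4h it had 39.2 and 47.7 CPM in clone 4 and 11.9 CPM in both libraries of clone 8. Every induced library lay above every 0h library. At rev Nab2 had 30.5 and 24.7 CPM in clone 4 and 23.0 and 18.7 CPM in clone 8, so that rev overlapped with both 2h and 4h.

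The log2 change of Nab2 was 2.05 at 2h (SE 0.338, edgeR adjusted p 0.000503), 2.32 at 4h (SE 0.343, edgeR adjusted p 0.000188) and 2.28 at rev (SE 0.345, edgeR adjusted p 0.00048), each against 0h. At rev its change ranked 27 among the 12742 genes tested, from the largest rise down. From 2h to 4h it was 0.27 (SE 0.275, edgeR adjusted p 0.541), and from 4h to rev -0.04 (95% interval -0.63 to 0.55, edgeR adjusted p 0.952). The exons of Nab2 overlap genes on the opposite strand, and whether the counting used strand is not given in the sources used here. Stat6 shares 1.36% of the Nab2 exon length, Nemp1 5.13% and the antisense model Gm16229 35.7%. Gm16229 had at most 1 count in any library. Stat6 was lower at 2h than at 0h (-0.49, edgeR adjusted p 0.0259). Stat6 was also lower at rev than at 0h (-0.85, edgeR adjusted p 0.00187), and Nemp1 was not called in either comparison. From 4h to rev Stat6 fell (-0.52, edgeR adjusted p 0.044), and from 2h to 4h Nemp1 rose (0.51, edgeR adjusted p 0.0444). The part of reads from these genes in the Nab2 counts was not tested.

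Of the 6 members Egr1, Egr3, Nab1 and Nab2 passed the filter on low counts, and calls were made at an adjusted p under 0.05 over all 12742 genes tested. At 2h against 0h all 4 of these were higher, where 9.49% of all tested genes were called higher. At 4h against 0h all 4 were again higher, against a background of 7.35%. Both comparisons share the 0h libraries. Egr3 passed the filter only through clone 4 libraries in which it was induced, so its part in these counts and those below is no support. At 4h against 2h Egr1 was lower, where 6.36% of genes were, and the other three were not called. At rev against 4h Egr1 and Egr3 were lower (background 5.1%), and the NAB genes were not called. At rev against 0h Egr3, Nab1 and Nab2 were higher (background 5.51%), Egr3 through its counts in clone 4. At rev against 2h Egr1 (-6.46, the last of all tested genes in order of change) and Egr3 (-3.36) were lower (background 1.01%). In that comparison Nab1 and Nab2 differed by 0.30 and 0.23 (edgeR adjusted p 0.724 and 0.765), and on library totals these values were -0.02 and -0.07. By clone, Nab2 there was -0.27 in clone 4 (edgeR adjusted p 0.323) and 0.86 in clone 8, a called rise (edgeR adjusted p 0.00213). The rise in clone 8 depended on the scaling, and on library totals it was 0.04 and not called (edgeR adjusted p 0.918). In the fit to all libraries these members had the same calls in all 6 comparisons with library totals in place of TMM. Leaving Egr3 aside, Egr1 was therefore lower at rev than at 4h in that fit, and both NAB genes at rev were above 0h.

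**Figure D2:**
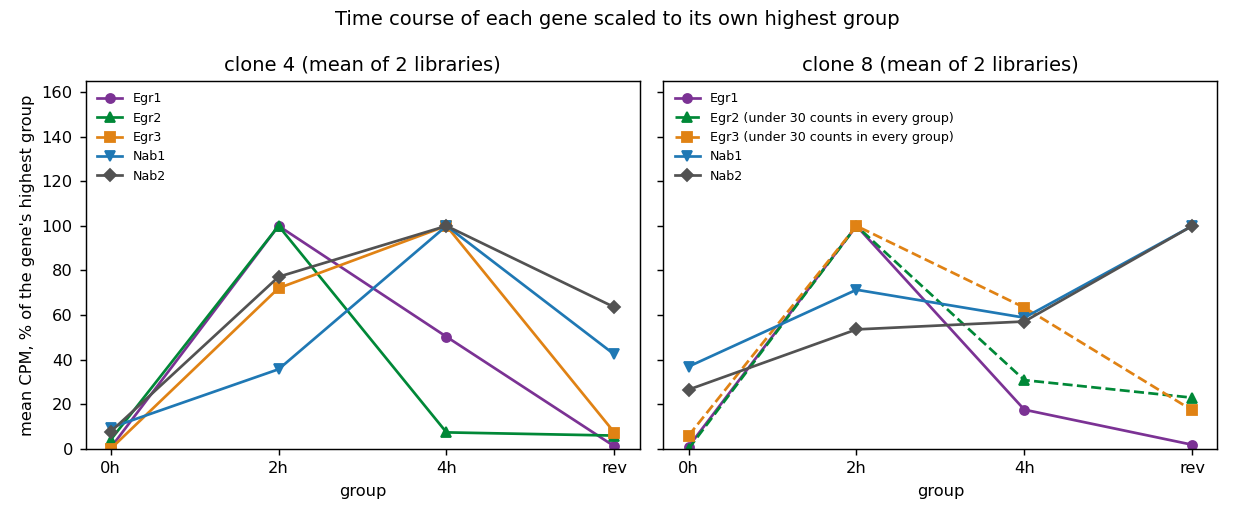
Mean CPM of the 2 libraries of a clone, as a percentage of the gene's highest group (vertical axis), in the 4 groups (left clone 4, right clone 8); dashed lines mark genes with under 30 counts in every group. Egr1 and Egr2 peak at 2h in both clones, and the NAB genes peak at 4h in clone 4 and, on this TMM scale, at rev in clone 8.

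Scaled to its own highest group, each gene showed a different course. The 4h level of Egr2 was 7.35% of its 2h level in clone 4, the lowest share of the 5 genes there, and 30.8% in clone 8 (3 against 18 counts). For Egr1 the 4h level was 50.3% of 2h in clone 4 and 17.5% in clone 8. Egr3 in clone 4 stood at 72.1% of its maximum at 2h, reached it at 4h and was at 7.30% at rev. In clone 4 the NAB genes also peaked at 4h, with 2h levels of 35.7% (Nab1) and 77.2% (Nab2), and stood at 42.3% and 63.5% at rev. In clone 8 both peaked at rev on this TMM scale, and their 4h levels were 58.8% (Nab1) and 57.1% (Nab2) of that. That peak depended on the scaling. With library totals the log2 change at rev against 2h in clone 8 was -0.35 for Nab1 and 0.04 for Nab2, neither called.

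The clones were compared by testing the difference between their changes, given as clone 8 minus clone 4 on the log2 scale. At 2h against 0h the rise was smaller in clone 8 for Nab2 (-2.34, SE 0.298, edgeR adjusted p 3.73e-06) and Nab1 (-1.02, SE 0.327, edgeR adjusted p 0.0481), where 5.01% of genes had such a call. The Nab1 call was lost with library totals (-0.43), DESeq2, no filter, the replicate block (edgeR adjusted p 0.0636) and a filter by group and clone. It was also lost on leaving out any single library other than 0h library 1 of clone 4, 2h library 1 of clone 4 or rev library 2 of clone 8. For Egr1 the difference was -0.91 (SE 0.476, edgeR adjusted p 0.25), and without 0h library 2 of clone 4 it was -2.29 and called. Later in the induction, at 4h against 0h, the rise was smaller in clone 8 for Egr1 (-2.43), Nab1 (-2.80) and Nab2 (-2.60), with edgeR adjusted p of 0.00152, 6.81e-07 and 5.36e-07 (background 3.69%). From 2h to 4h the clone difference was -1.52 for Egr1 and -1.78 for Nab1 (edgeR adjusted p 8.5e-07 and 3.15e-06, background 6.48%). For Nab2 it was -0.26 (95% interval -0.67 to 0.15, edgeR adjusted p 0.43). For Egr3 the differences had SEs of 0.57 to 2.90 and were not called. In clone 4 alone Nab1 rose between 2h and 4h (1.49, edgeR adjusted p 1.02e-07), where 12.5% of genes were called higher, and its value in clone 8 was -0.28 (edgeR adjusted p 0.393). For Egr3 and Nab2 both 4h libraries of clone 4 lay above both 2h libraries, but the changes of 0.46 and 0.35 were not called (edgeR adjusted p 0.0651 and 0.0629).

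**Figure D3:**
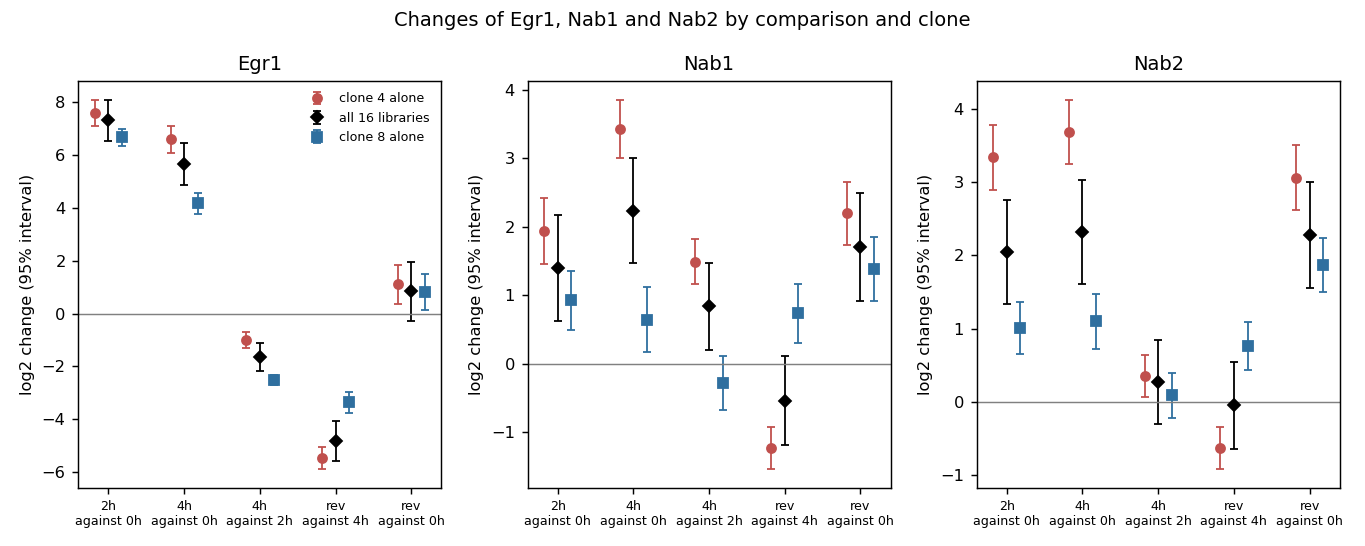
Fitted log2 changes (vertical axes) of Egr1, Nab1 and Nab2 in 5 comparisons, for clone 4 alone (red circles), all 16 libraries (black diamonds) and clone 8 alone (blue squares); bars are 95% intervals. At rev against 4h the NAB genes have negative changes in clone 4 and positive ones in clone 8, while Egr1 is negative in both.

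The step from 4h to rev also differed between the clones. Its clone difference shares the 4h libraries with the one at 4h against 0h given above. From 4h to rev the log2 change of Egr1 was -5.47 in clone 4 and -3.35 in clone 8, a fall in both, and the difference of 2.13 was called (SE 0.420, edgeR adjusted p 0.000619, background 6.3% higher). Nab1 (-1.23) and Nab2 (-0.63) fell in clone 4, with edgeR adjusted p of 6.97e-07 and 0.00146, where 11.8% of genes were called lower. In clone 8 alone both rose, by 0.74 and 0.76 (edgeR adjusted p 0.0345 and 0.00394), where 3.37% of genes were called higher. The difference between the clones was 1.98 for Nab1 and 1.40 for Nab2 (edgeR adjusted p 1.79e-06 and 1.77e-05). The rises in clone 8 depended on the scaling. With library totals they were 0.19 and 0.21 and not called, in a fit whose median over all genes was -0.55. On library totals the clone difference was 1.33 for Nab1 (edgeR adjusted p 0.0224) and 0.75 for Nab2 (edgeR adjusted p 0.156). The shallowest library, rev library 1 of clone 8, belongs to this comparison, and without it or any other single library the differences of Egr1, Nab1 and Nab2 were still called. At rev against 0h the clone difference was -0.30 for Egr1 and -0.82 for Nab1, neither called (edgeR adjusted p 0.832 and 0.165). Nab2 rose less in clone 8 there (-1.20, SE 0.307, edgeR adjusted p 0.016, background 3.1%). That call was lost on library totals (-1.53, edgeR adjusted p 0.072) and on leaving out 0h library 2 or rev library 1 of clone 4, or 0h library 1 or rev library 2 of clone 8, with values of -1.16 to -0.98.

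The levels themselves were also compared between clones within each group, again as clone 8 against clone 4 on the log2 scale. Before induction 0 of the 4 tested members were called by edgeR, while 11.7% of all genes were. Of these 4, Nab2 alone had an unadjusted p under 0.05, with a difference of 0.75 (SE 0.271, edgeR adjusted p 0.0675). At 2h all 4 were lower in clone 8, among 16.5% of genes called lower. The differences there were -1.56 for Egr1, -3.94 for Egr3, -0.94 for Nab1 and -1.59 for Nab2. After 4 h all 4 were lower again (background 11.6%), at -3.08 for Egr1, -4.92 for Egr3, -2.72 for Nab1 and -1.85 for Nab2. At rev all 4 were still lower (background 12.3%), at -0.95, -3.70, -0.73 and -0.44 in the same order (edgeR adjusted p 0.039, 0.00264, 0.00225 and 0.0236). Egr3 passed the filter only through libraries of clone 4, so its lower level in clone 8 is no support in any of these counts. The test of the step from 4h to rev is the clone difference given above, which for Egr3 was 1.22 with an SE of 1.98.

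Per kilobase of exon, levels can be compared between genes. Before induction the order of the mean CPM per kilobase was Nab2 (1.51 ± 0.45, SD, n = 4), Nab1 (0.917 ± 0.195) and Egr1 (0.469 ± 0.289), and the library ranges of neighbours overlapped. Egr2, Egr3 and Egr4 had means of at most 0.0576. At 2h Egr1 led with 76.8 ± 45.1, and its lowest library (37.7) exceeded the highest Nab2 value (11.7). Nab2 (7.60 ± 4.40), Nab1 (2.61 ± 1.01), Egr3 (1.65 ± 1.67) and Egr2 (0.739 ± 0.634) followed; the ranges of Nab1 and Egr3 and of Egr3 and Egr2 overlapped, and those of Nab2 and Nab1 overlapped by the span from 3.74 to 3.81. At 4h the order was Egr1 (32.3 ± 29.9), Nab2 (9.41 ± 6.31), Nab1 (5.55 ± 4.72) and Egr3 (2.21 ± 2.41), with overlapping ranges across clones, although Egr1 exceeded Nab2 in each library. At rev Nab2 (8.24 ± 1.66) and Nab1 (3.29 ± 0.92) were above Egr1 (0.999 ± 0.376) with no overlap. The SDs include the difference between the clones.

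Egr1 made up 72.9% to 98.8% of the summed EGR level per kilobase in every library. The ratio of summed EGR to summed NAB level was 0.117 to 0.549 at 0h, 6.79 to 8.51 at 2h, 1.25 to 2.70 at 4h and 0.0758 to 0.135 at rev. It was therefore above 1 in all libraries at 2h and 4h and below 1 in all at 0h and rev. At 2h the clones were close on this ratio, at 7.50 and 8.51 in clone 4 and 7.32 and 6.79 in clone 8, although the summed EGR level was 106.4 and 132.0 in clone 4 and 40.5 and 38.2 in clone 8. At 4h they were 2.37 and 2.70 in clone 4 and 1.25 and 1.30 in clone 8. The rev ratios of clone 8 (0.0924 and 0.0758) were below all 0h ratios, and those of clone 4 (0.135 and 0.117) overlapped with them. No test was made of this ratio, which was formed from members whose changes are tested above. Transcript ratios do not give protein ratios.

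**Figure D4:**
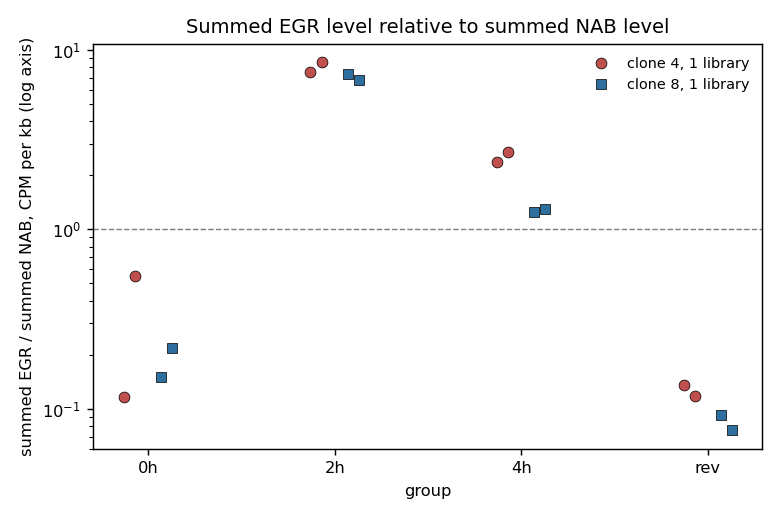
Ratio of summed EGR to summed NAB level in CPM per kilobase of exon (vertical log axis; the dashed line marks 1) in the 4 groups, with 1 point per library (circles clone 4, squares clone 8). All 2h libraries lie between 6.79 and 8.51, and all rev libraries lie between 0.0758 and 0.135.

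Other genes of the pathway were followed as lists. Their counts are read against the shares of all tested genes: 9.49% were called higher and 7.48% lower at 2h against 0h, and 7.35% and 5.56% at 4h against 0h. Of SRF, its ternary complex factors and its other cofactors, 1 of 6 tested genes rose at 2h (Elk4, 0.68), a share near that of all genes, and 2 at 4h against 0h (Elk4, 0.55, and Srf, 0.49). The list's median at 4h was 0.22 on the log2 scale against -0.01 for all genes. Of 18 tested partner proteins of NAB and EGR, which include NuRD subunits and histone acetyltransferases, 5 rose and none fell at 2h. The largest was Rbbp7, a histone-binding subunit, at 0.57 (edgeR adjusted p 5.69e-05), followed by Ep300 at 0.54; the list's median was 0.03. At 4h, 2 were above 0h (Rbbp7, 0.46, and Ddx20, 0.39) and Mta1 was below it (-0.31). Of 6 other zinc finger factors of GC-rich sites 3 rose at 2h, led by Klf10 (0.77) and Zfp281 (0.43), and 3 were higher at 4h than at 0h, led by Wt1 (0 to 7 counts at 0h, 1 to 46 at 4h) and Zfp281 (0.65). Zfp281 fell from 4h to rev (-0.67, edgeR adjusted p 1.59e-05).

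Of 27 tested immediate-early and ERK feedback genes, 21 rose at 2h and none fell, with a list median of 1.41 against 0.00 for all genes. Spry4, a feedback inhibitor, rose most (5.60), followed by Fos (4.58). Of the same genes 19 were higher and 1 lower at 4h than at 0h. From 2h to 4h 2 rose (Etv4, 1.91, and Dusp4, 1.39) and 7 fell, led by Fos (-3.04) and Atf3 (-1.71). Of all genes 5.78% were higher and 6.36% lower there, so the 2 rises are near the share of all genes. At rev against 4h 13 fell, led by Spry4 (-6.41) and Dusp6 (-5.03), where 5.1% of all genes did. The 2 that rose are near the 4.5% of all genes. At rev against 0h 4 were still higher, against 5.51% of all genes, and the list's median was 0.35. They were led by Fosl2 (0 to 3 counts at 0h, 2 to 39 at rev), of the AP-1 family, and Maff (1.41), of the MAF family.

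Of 28 tested genes described elsewhere as EGR targets, 9 rose and 2 fell at 2h (list median 0.48), and 12 were higher and 2 lower at 4h than at 0h (0.52). The 2 falls at 2h are at the share of all genes. From 2h to 4h 5 rose and 6 fell (list median 0.08), against 5.78% and 6.36% of all genes. From 4h to rev 4 rose and 7 fell (-0.12), against 4.5% and 5.1%, and at rev 8 were higher and 1 lower than at 0h (0.48), against 5.51% and 4.94%. The median over all genes was between -0.01 and 0.01 in each. The largest rises at 2h were those of Rrad, a small GTPase gene with 0 counts at 0h and 0 to 15 at 2h, and Thbs1, a matrix glycoprotein gene with 0 to 1 counts at 0h and 11 to 24 at 2h. At 4h Rrad (1 to 32 counts) and the cyclin gene Ccnd2 (1 to 2 counts at 0h, 12 to 255 at 4h) led. Ccnd2 rose further from 2h to 4h (2.52) and fell at rev (-2.91), and Vgf, a neuropeptide precursor gene, rose most in that first step (2.58). Plaur, the urokinase receptor gene, fell most at rev (-3.09, edgeR adjusted p 0.000576). Igf2, an imprinted growth factor gene, fell from 2h to 4h (-2.11) and rose from 4h to rev (2.03), where Egr1 fell in both steps. Atf3, a stress-responsive factor that is also in the immediate-early list, did likewise (-1.71 and 2.10). Id3 and Arc are given because they were closest to Egr1 and Egr3 in pattern. Id3, an inhibitor of bHLH factors, rose at 2h (3.71), fell from 2h to 4h (-0.88, edgeR adjusted p 0.0119) and fell further at rev (-2.36). Arc, a neuronal immediate-early gene, rose at 2h (2.13), was 1.99 above 0h at 4h and fell at rev (-1.63). The list was drawn from other cell types and no binding was measured here.

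The genes most like each member were found by Pearson correlation of log2 CPM over the 16 libraries after the mean of each clone was removed, among 8543 genes with a mean of at least 50 counts in their highest group. The libraries of a group share their treatment, so these values are a description. For Egr1 the closest were Id3 (0.992), Tiparp (0.963), Spry4 (0.956), Nufip2 (0.956) and Enc1 (0.946). Egr3 was closest to Arc (0.960), Slc39a14 (0.952), Etv5 (0.934), Jmjd1c (0.931) and Dusp5 (0.927). Nab1 was closest to Cavin1 (0.981), a caveola coat gene, then Baz1a (0.966), Baiap2 (0.963), Plekhf1 (0.945) and Nr6a1 (0.935). Nab2 was also closest to Cavin1 (0.964), then Fam83h (0.938), Jup (0.935), Midn (0.932) and Bex1 (0.930). Among the members themselves Nab1 and Nab2 were the most alike (0.933), followed by Egr1 and Egr3 (0.889), while Egr1 correlated at 0.535 with Nab1 and at 0.581 with Nab2.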

How the data were processed

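RNA-seq libraries had been made from rRNA-depleted total RNA, per the labels' protocols. The counts the authors deposited are whole numbers per Ensembl gene, not normalized, in 1 table. The submitters' processing notes name bcl2fastq 2.19.1, STAR 2.5.3a and the build mm10; the counting program, annotation and strand setting are not given in the sources used here. Symbols, exon lengths and coordinates came from GENCODE M21 (GRCm38, the build also called mm10); 52403 IDs matched and 233 did not.

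Counts were tested with edgeR 4.0.16 (R 4.3.3), by its quasi-likelihood test after filterByExpr by group (minimum count 10, total 15; 12742 genes) and TMM scaling, with groups and clone as terms over 16 libraries. P-values were adjusted by Benjamini-Hochberg over all 12742 genes. Clone differences came from a fit of the 8 group and clone combinations, and each clone was also fitted alone. The test was run on simulated counts first. Alternatives included library totals, DESeq2 1.42.0, no filter and leaving out each library. The 6 members were always named. From each list, genes past the test with up to 2 rises and 2 falls of the largest size could be named, plus those a sentence on the members needed; likeness used the 5 closest genes. Members and lists were chosen with earlier results of these data known. Intervals and floors cover counting error only, because these libraries carry no molecular identifiers that the labels name.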

Additional observations from a re-analysis of the deposited data

Results flagged for a closer look

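Clone differences were tested for 4 members in 5 comparisons, 20 tests, and 11 passed at an adjusted p under 0.05 (edgeR, quasi-likelihood, interaction term; log2 values, clone 8 minus clone 4). At 2h against 0h these were Nab1 (-1.02) and Nab2 (-2.34). At 4h against 0h they were Egr1 (-2.43), Nab1 (-2.80) and Nab2 (-2.60), and at 4h against 2h Egr1 (-1.52) and Nab1 (-1.78). At rev against 4h they were Egr1 (2.13), Nab1 (1.98) and Nab2 (1.40), and at rev against 0h Nab2 (-1.20). The 5 comparisons share libraries and are not independent. One library stood apart from the other three of its group: the Egr3 level of 0h library 1 of clone 8, at 0.104 CPM, which is 1 count where the others had 0. It was 1 of 24 groups of 4 values examined. The rule marks about 1 in 20 by chance for continuous values, but it always marks 1 count beside values of 0. The mark therefore carries no information here.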

How the results depend on the processing

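Of 277 counts of called members under alternatives, 240 stayed within 1.5 times the main count. The exceptions were as follows. At 4h against 0h, clone 8 alone called 2. At 4h against 2h the count of 1 became 3 without a filter on low counts, 0 without the clone covariate, 3 in clone 4 alone, 2 with a filter by group and clone, 2 without both rev libraries of clone 8, and 1 to 2 when single libraries were left out. At rev against 4h it became 1 without the clone covariate and 4 in clone 4 alone. Without the clone covariate it was 1 at rev against 0h and 1 at rev against 2h. For the clone difference at 2h against 0h, the count of 2 became 1 with library totals, DESeq2, no filter, an adjusted p under 0.01, removal of the features above 1% of counts, the filter by group and clone, and the replicate block, and 1 to 2 without single libraries; at rev against 0h it was 0 with library totals and at an adjusted p under 0.01, and 0 to 1 without single libraries. The replicate block changed no other count of members. Library numbers recur within each clone, but deviations of same-numbered libraries did not go together (mean r -0.0106, range -0.133 to 0.119 over 12 pairs), so they share only a number. Of 1144 changes of single members, 46 lost a call and 14 gained one with the same sign. The sign turned in 20, and 18 of these were called neither before nor after. The other 2 were called rises, Nab1 (0.74) and Nab2 (0.76) at rev against 4h in clone 8 alone. Library totals moved the median of all genes by 0.103 at 2h against 0h, -0.202 at rev against 4h and -0.341 at rev against 2h, and by 0.583 and -0.651 for the clone differences at 2h against 0h and rev against 4h; the member changes there include that move. They also lowered the number of all genes called, from 2162 to 446 at 2h against 0h, 1645 to 508 at 4h against 0h, 1547 to 385 at 4h against 2h, 1224 to 530 at rev against 4h and 1332 to 449 at rev against 0h. In clone 8 alone, Nab1 was not called at 4h against 0h. Library totals ended the clone 8 calls of Nab1 at 2h against 0h (1.31, adjusted p 0.0508 with edgeR) and rev against 0h (0.96, 0.24). They also ended those of Nab2 at 4h against 0h (1.22, 0.332) and rev against 2h (0.04, 0.918). At rev against 4h they ended the clone 8 calls of both NAB genes, as given above. The filters by group and clone, the removal of both clone 8 rev libraries and the clone fits on library totals were chosen after seeing the data. The causes of these differences were not tested. Depth limits Egr4 throughout, Egr2 outside 2h and Egr3 in clone 8.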
